A study of Homo sapiens with 6 samples.

Results

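The transcripts of GADD45A, GADD45B, GADD45G and GADD45GIP1 were followed in HT29 cells, an established human colorectal adenocarcinoma line. These 4 genes are the rows, among 60676 listed, whose identifiers carry a GADD45 symbol in the gencode release 44 annotation. The set was selected on earlier results of the same libraries, in which GADD45B stood among the largest increases after histidine depletion. The levels of the 4 genes in histidine-depleted cells are therefore given as a description, without a test. Tryptophan depletion did not choose the set and was tested, although it is measured against the same untreated libraries.

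HT29 cells were kept for 48 h in control medium (untreated), in histidine-depleted medium or in tryptophan-depleted medium, with 2 poly-A RNA-seq libraries per condition and 6 in all. The labels give no further treatment or genetic change for any group. The histidine-depleted medium was built on RPMI and the tryptophan-depleted medium on DMEM F-12, both with dialysed serum, and the base of the control medium is not given for these libraries, so a depletion and its base medium cannot be told apart. Tryptophan depletion was included in the study as a reference for general amino acid stress. Reads counted on genes, as recovered from the deposited values, ran from 46390819 to 64388876 per library. All 8 epithelial markers listed for HT29 (EPCAM, KRT8, KRT18, KRT20, CDH1, CDX2, VIL1 and CEACAM5) had reads in every library, with summed levels per length of 6433 to 9858 TPM, the reads of a gene over its exonic length as parts of a fixed total. Their sum, most of it from keratin genes, does not show how single markers moved. By limma, 4 of the 8 rose and 4 fell after histidine depletion, and 5 rose, 1 fell and 2 did not pass after tryptophan depletion. CEACAM5 fell 6.09-fold after histidine depletion and rose 15.1-fold after tryptophan depletion, KRT20 rose 3.33-fold and 5.22-fold, and CDX2 fell 2.59-fold and 1.18-fold. The part of these changes in the values below was not tested. The 12 markers of immune, endothelial, stromal, liver and mast cells summed to 0.727 to 1.59 TPM, with 5 or 6 of the 12 at 0 reads in each library, among them KIT, TPSAB1 and CPA3.

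The GADD45 proteins are small acidic proteins induced by growth arrest, DNA damage and other stress. They have no known enzymatic activity and act by binding partners. They bind and activate the kinase MAP3K4 upstream of p38 and JNK, contact PCNA, the inhibitor p21 and the complex of CDK1 with cyclin B1, and take part in DNA repair and active DNA demethylation. GADD45A is induced by DNA damage and through ATF4, while GADD45B is an early gene of NF-kB and TGF-beta signalling and GADD45G responds to cytokines and differentiation. GADD45GIP1, also called CRIF1 or mL64, is not a paralog. It is a protein of the large subunit of the mitochondrial ribosome, first found as a nuclear partner of the GADD45 proteins.

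On GRCh38, GADD45A (ENSG00000116717) lies on the plus strand of chromosome 1 from 67685201 to 67688334. GADD45B (ENSG00000099860) occupies chromosome 19 from 2476122 to 2478259, also on the plus strand, and GADD45G (ENSG00000130222) the plus strand of chromosome 9 from 89605012 to 89606555. The canonical transcript of each has 4 exons. GADD45GIP1 (ENSG00000179271) lies on the minus strand of chromosome 19 from 12953119 to 12957223 and has 2 exons. No other annotated gene overlaps the exons of GADD45A, GADD45B or GADD45G.

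The promoters of the 3 members with a RefSeq promoter entry for GRCh38.p14 are shown. Several of the pathways compared below act through DNA motifs, and matches to such motifs were searched near the starts of these genes. Each sequence holds the 250 bases before the RefSeq start of the gene on its own strand. Capitals mark the matches to the motifs searched.

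GADD45B, chr19:2475877-2476126, plus strand: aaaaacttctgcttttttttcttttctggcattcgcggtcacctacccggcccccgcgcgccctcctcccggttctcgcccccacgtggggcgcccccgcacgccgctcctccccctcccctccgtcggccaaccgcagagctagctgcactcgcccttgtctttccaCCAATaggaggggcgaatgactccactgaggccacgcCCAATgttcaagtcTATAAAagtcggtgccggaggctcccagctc
GADD45G, chr9:89604762-89605011, plus strand: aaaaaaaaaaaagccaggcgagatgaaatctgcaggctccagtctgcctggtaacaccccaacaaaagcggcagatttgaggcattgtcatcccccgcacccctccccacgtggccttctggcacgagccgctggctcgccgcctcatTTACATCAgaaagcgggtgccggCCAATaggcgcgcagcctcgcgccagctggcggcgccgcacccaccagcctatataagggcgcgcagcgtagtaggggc
GADD45GIP1, chr19:12957224-12957473, minus strand: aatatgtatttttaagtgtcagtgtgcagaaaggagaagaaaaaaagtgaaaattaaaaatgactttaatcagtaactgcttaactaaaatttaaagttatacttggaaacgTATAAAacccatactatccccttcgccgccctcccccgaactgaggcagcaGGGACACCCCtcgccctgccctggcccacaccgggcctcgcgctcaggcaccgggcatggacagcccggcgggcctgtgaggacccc

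The motifs reported are 6 of those searched, the box CCAAT, the box spelled TATAAA, the AP-1 site TGANTCA, the cyclic AMP response element TGACGTCA, the core TGATGNAA of the composite C/EBP-ATF element and the NF-kB site. They were searched on both strands from 250 bases before to 50 bases after the start. The GADD45B window held CCAAT at -82 to -78 and again at -45 to -41, and TATAAA at -31 to -26. The GADD45G window held CCAAT at -79 to -75 and, on the opposite strand, the C/EBP-ATF core at -102 to -95. The GADD45GIP1 window held TATAAA at -138 to -133 and the NF-kB site at -87 to -78. None of these matches overlapped another, and no other match to these 6 motifs was found in the 3 windows. Among 35116 RefSeq promoters of this length, 34.6% held CCAAT, 11.5% TATAAA, 7.71% the AP-1 site, 1.85% the cyclic AMP response element, 3.62% the C/EBP-ATF core and 5.91% the NF-kB site. GC content was 63.2% in the GADD45B promoter, 61.6% in that of GADD45G and 50.4% in that of GADD45GIP1.

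Values per library below are normalized counts, that is reads divided by a size factor of the library, with the 6 libraries brought to a common scale. Fold changes and their standard errors come from limma on log2(normalized count + 1) within the table of each depletion, a scale that understates the change of low genes. In RNA from bulk cells, fewer cells of a type and less RNA per cell cannot be told apart.

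GADD45B, the family member tied to NF-kB and TGF-beta signalling, had the largest difference of the 4 genes after histidine depletion. It reached 198.9 and 165.1 normalized counts in the untreated libraries, 5479.7 and 5577 in the histidine-depleted ones and 391.6 and 458.7 in the tryptophan-depleted ones. Both histidine-depleted libraries stood far above the other 4, and both tryptophan-depleted libraries stood above the untreated ones, so that the 3 groups did not overlap. The histidine-depleted level was 30.5-fold above untreated, a log2 fold change of 4.93 (SE 0.0757), which ranked 67 from the top among 18288 genes tested. After tryptophan depletion GADD45B rose 2.32-fold, a log2 fold change of 1.21 (SE 0.108, limma adjusted p = 1.52e-20, higher in both libraries), which ranked 1279 among 17960 genes tested.

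GADD45A, the family member induced through ATF4, was already well expressed in untreated cells. Its normalized counts were 1089 and 1228 in untreated, 6039 and 6133 in histidine-depleted and 1561 and 1535 in tryptophan-depleted libraries. Here too the order was untreated, tryptophan-depleted and histidine-depleted, without overlap. The histidine-depleted level was 5.29-fold above untreated (log2 fold change 2.40, SE 0.0588), at rank 668. Tryptophan depletion raised GADD45A 1.33-fold (log2 fold change 0.41, SE 0.0595, limma adjusted p = 4.27e-10), at rank 4836.

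GADD45G, the member linked to cytokines and differentiation, was the least abundant. It had 42.6 and 54.7 normalized counts in untreated, 125.6 and 120.1 in histidine-depleted and 134.5 and 119.0 in tryptophan-depleted libraries, from 39 to 139 reads per library. All 4 depleted libraries lay above both untreated ones, and the histidine-depleted values lay within the range of the tryptophan-depleted ones. GADD45G was 2.53-fold above untreated after histidine depletion (log2 fold change 1.34, SE 0.189, rank 1984). It rose 2.57-fold after tryptophan depletion (log2 fold change 1.36, SE 0.189, limma adjusted p = 1.12e-10, rank 1043). Its standard error was the largest of the 4 genes in both comparisons.

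GADD45GIP1, the mitochondrial ribosomal protein, went in opposite directions. It had 1200.1 and 1289 normalized counts in untreated, 1900.1 and 2069.6 in histidine-depleted and 541.0 and 580.5 in tryptophan-depleted libraries. The histidine-depleted libraries lay above and the tryptophan-depleted ones below both untreated libraries. The histidine-depleted level was 1.60-fold above untreated (log2 fold change 0.68, SE 0.0624, rank 4513). After tryptophan depletion GADD45GIP1 fell 2.23-fold, a log2 fold change of -1.16 (SE 0.0684, limma adjusted p = 2.62e-34), which ranked 1508 from the bottom. Part of its exonic sequence is annotated on both strands and whether strand was used in counting is not given in the sources used here, so its count is uncertain.

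Each of the 4 genes passed the limma threshold of an adjusted p under 0.05 after tryptophan depletion, 3 of them higher and 1 lower. Of all 17960 genes tested there, 70.8% passed, 36.1% higher and 34.8% lower, so that passing by itself was common. After histidine depletion, the comparison that chose the set and in which its members are not counted, 77.3% of the 18288 genes tested passed, 39.1% higher and 38.2% lower. Where the log2 fold change also had to reach 1 in size, 3 of the 4 passed after tryptophan depletion, GADD45B, GADD45G and GADD45GIP1, beside 20.5% of all genes tested.

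The depletions were set against each other on the common scale of the 6 libraries, again without a test for the 4 genes. GADD45B was 13.0-fold higher in histidine-depleted than in tryptophan-depleted cells (log2 difference 3.70, SE 0.0871). GADD45A was 3.93-fold higher (log2 difference 1.97, SE 0.0539) and GADD45GIP1 3.53-fold higher (log2 difference 1.82, SE 0.0630). For GADD45G the log2 difference was -0.043 with an SE of 0.172, and the groups overlapped. Of 18264 genes tested between the depletions, 76.7% passed the threshold, 38.7% higher and 38% lower in histidine-depleted cells.

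**Figure D1:**
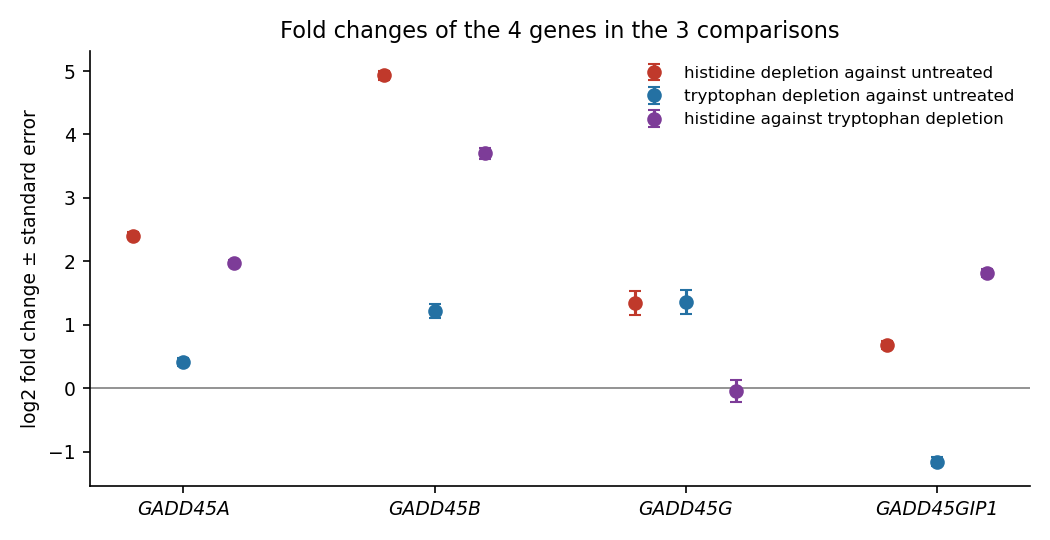
Log2 fold change of each gene against untreated after histidine and after tryptophan depletion, and the log2 difference between the depletions, with standard errors from limma. GADD45B has the highest value in both comparisons that involve histidine-depleted cells, at 4.93 and 3.70, and GADD45G is near 0 between the depletions.

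Levels were compared between the genes only per length, in TPM over the union of annotated exons. In untreated cells GADD45GIP1 (51.8 ± 2.64, SD, n = 2) and GADD45A (44.3 ± 3.80) stood highest, followed by GADD45B (6.27 ± 0.822) and GADD45G (2.71 ± 0.477). In histidine-depleted cells the order was GADD45A (218.5 ± 2.74), GADD45B (178.7 ± 2.5), GADD45GIP1 (77.5 ± 4.80) and GADD45G (6.41 ± 0.194). In tryptophan-depleted cells it was GADD45A (57.3 ± 0.760), GADD45GIP1 (22.6 ± 1.10), GADD45B (14.2 ± 1.56) and GADD45G (6.82 ± 0.595). Neighbours in these orders did not overlap between libraries. Over the length of the canonical transcript, however, GADD45A (35.7 ± 2.49) stood above GADD45GIP1 (29.3 ± 1.03) in untreated cells, and GADD45GIP1 (13.0 ± 0.664) and GADD45B (12.7 ± 1.44) were within their spread of each other in tryptophan-depleted cells. These pairs have no order that holds for both lengths.

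The levels per length of the 3 paralogs, GADD45A, GADD45B and GADD45G, summed to 50.9 and 55.8 TPM in untreated libraries. The sum was 400.0 and 407.1 TPM after histidine depletion and 78.1 and 78.4 TPM after tryptophan depletion. GADD45A made up 83.1% ± 1.74 (SD, n = 2) of the sum in untreated, 54.1% ± 0.00199 in histidine-depleted and 73.2% ± 1.17 in tryptophan-depleted cells. GADD45B made up 11.8% ± 2.31, 44.3% ± 0.0659 and 18.1% ± 1.95 in the same order, and GADD45G 5.06% ± 0.566, 1.59% ± 0.0679 and 8.72% ± 0.783. GADD45G thus held its smallest share where the sum was highest, although its own level was above untreated there. Over canonical transcripts the share of GADD45B was 12.9%, 46.6% and 19.7%.

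**Figure D2:**
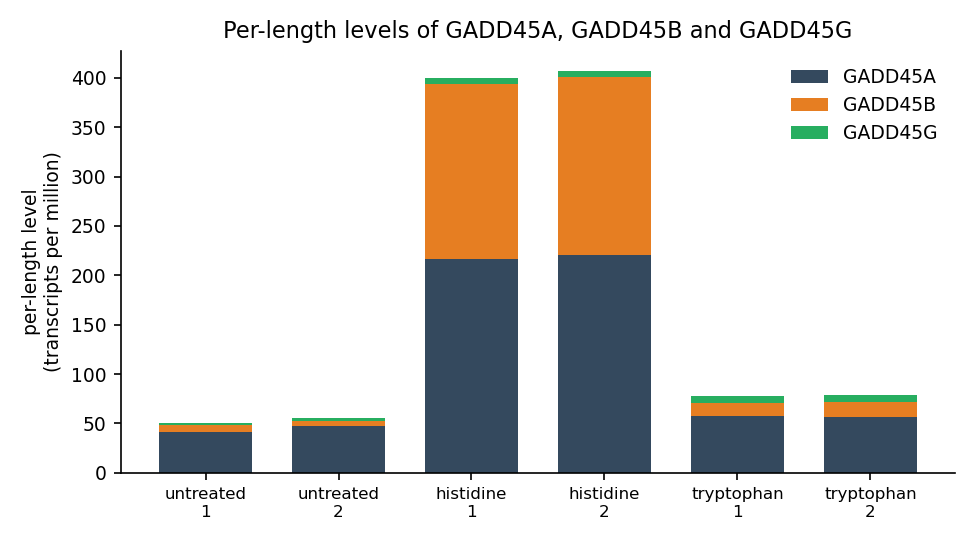
Level per length, in TPM over the union of exons, of GADD45A, GADD45B and GADD45G stacked in each of the 6 libraries. The histidine-depleted libraries reach 400.0 and 407.1 TPM, of which GADD45A makes up 54.1% and GADD45B 44.3% on average, while GADD45B makes up 11.8% in untreated and 18.1% in tryptophan-depleted libraries.

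The genes whose profiles over the 6 libraries were most like each member were found by the distance between log2 values, each taken relative to its untreated mean, among 11415 protein-coding genes. These values include the libraries that chose the set and are a description. For GADD45A they were PHLDB3 (distance 0.113), BLZF1 (0.116), GPR158 (0.189), MED6 (0.194) and the chemokine CXCL16 (0.217). GADD45B had no neighbour as near. The closest were the histone gene H2BC8 (0.519), TG, which encodes thyroglobulin (0.542), the interferon-induced GTPase gene GBP1 (0.624) and 2 genes without a symbol, ENSG00000285816 (0.673) and ENSG00000282988 (0.686). The counts of the last 2 are uncertain, because 91.3% and 43.6% of their exonic bases lie in other genes of the same strand, and those of H2BC8 because it belongs to a multigene family. TG and ENSG00000282988 averaged only 5.77 and 4.67 normalized counts in untreated and 15.5 and 10.6 in tryptophan-depleted cells. Their distances therefore rest on few reads in those groups. GADD45G was nearest to PPP1R3F (0.247), the co-chaperone gene DNAJC12 (0.249), SEZ6L2 (0.291), FNDC3A (0.308) and the transcription factor gene BHLHE40 (0.310). GADD45GIP1 was nearest to TAF5, a subunit of the general factor TFIID (0.161), the kinetochore gene NDC80 (0.189), ADGRG6 (0.203), DCAF15 (0.232) and GAS2L3 (0.252).

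The genes around GADD45 were taken from 11 lists by role, 166 genes in all, of which 162 were tested against untreated in each depletion. After histidine depletion 75 rose, 60 fell and 27 did not pass, with a median log2 fold change of 0.094 beside 0.010 over all genes. After tryptophan depletion 54 rose, 79 fell and 29 did not pass, with a median of -0.049 beside 0.013. Under upper-quartile scaling, which moved the median of all genes to 0.23 and 0.13, the split was 95 higher and 49 lower after histidine depletion and 73 higher and 70 lower after tryptophan depletion. Direct comparison of the depletions gave 93 genes higher and 50 lower in histidine-depleted cells among 161 tested, and 102 and 42 under upper-quartile scaling. The shares past the threshold, 83.3%, 82.1% and 88.8%, compare with 77.3%, 70.8% and 76.7% of all genes. These shares are a description and were not tested, because the lists were written with earlier results of these data known. Where the change also had to reach 1 on the log2 scale, 55 of 162, 36 of 162 and 65 of 161 pathway genes passed, beside 32.5%, 20.5% and 31.7% of all genes. Counts of some named genes are uncertain where exons are shared. Genes of the same strand cover 22.7% of the exonic bases of TGFB2 and 16.5% of NUPR1, and genes of the opposite strand cover 30.5% of MRPL9, 25.4% of ICAM1 and 24.8% of NFE2L2. The annotation also lists 4 pseudogenes of ATF4 and 3 of PCNA.

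The kinase cascade downstream of GADD45 moved in both directions after histidine depletion, with 5 of 12 genes higher, 6 lower and 1 not past the threshold (median log2 fold change -0.33). MAP3K4, the kinase that GADD45 proteins bind, fell by 1.24 on the log2 scale (SE 0.0632, limma adjusted p = 5.80e-15). Of the p38 kinase kinases, MAP2K6 fell by 2.43 (SE 0.0703, limma adjusted p = 1.17e-19) and MAP2K3 rose by 1.51 (SE 0.050, limma adjusted p = 1.55e-18). The p38 isoform MAPK11 rose by 1.38 (SE 0.139, limma adjusted p = 2.81e-09), while the p38 isoforms MAPK14 and MAPK13 fell by 0.83 and 0.62. Towards JNK, MAP2K4 rose by 1.02 and MAP2K7 by 0.80. Of the JNK genes, MAPK8 rose by 0.75, MAPK10 fell by 1.13 and the remaining 1 did not pass. MAPK10 averaged only 15.2 normalized counts in untreated cells. After tryptophan depletion 4 genes rose, 4 fell and 4 did not pass (median 0.059). MAP3K4 fell by 0.22 (SE 0.0513, limma adjusted p = 6.72e-05), and MAPK11 rose by 0.75, MAP2K4 by 0.59 and MAPK13 by 0.42.

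Of 10 cell cycle and repair partners, 3 rose, 5 fell and 2 did not pass after histidine depletion, with a median of -0.15. CDKN1A, which encodes the cyclin-dependent kinase inhibitor p21, rose by 2.83 on the log2 scale (SE 0.0540, limma adjusted p = 5.95e-23), and the G1 cyclin gene CCND1 by 1.29 (SE 0.0515). PCNA, the sliding clamp of DNA replication, fell by 1.00 (SE 0.0507). CDK1, the mitotic kinase, had a log2 fold change of -0.014 (limma adjusted p = 0.807). After tryptophan depletion 2 of the 10 rose, 7 fell and 1 did not pass (median -0.90). CDK1 fell by 2.71 (SE 0.0531, limma adjusted p = 8.77e-89), PCNA by 2.62 (SE 0.0498) and the mitotic cyclin gene CCNB1 by 1.87 (SE 0.0477), while CDKN1A rose by 0.23 (SE 0.0594, limma adjusted p = 0.000371). Between the depletions CDK1 was higher in histidine-depleted cells by 2.68 (limma adjusted p = 9.85e-17) and CDKN1A by 2.59 (limma adjusted p = 1.69e-17).

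Of 10 DNA demethylation partners and DNA methyltransferases, 4 rose, 4 fell and 2 did not pass after histidine depletion (median -0.035). The de novo methyltransferase genes DNMT3B and DNMT3A fell by 3.75 (SE 0.171) and 1.48 (SE 0.0661), and the methylcytosine dioxygenase gene TET3 rose by 1.46 (SE 0.0537). TDG, the glycosylase that removes oxidised methylcytosine, rose by 0.58 (SE 0.0510). After tryptophan depletion 1 rose, 5 fell and 4 did not pass (median -0.16). The maintenance methyltransferase gene DNMT1 fell by 2.27 (SE 0.0499), DNMT3B by 2.12 (SE 0.120) and TET2 by 0.30 (SE 0.0580).

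Among 21 tested regulators of GADD45 transcription, 11 rose, 5 fell and 5 did not pass after histidine depletion (median 0.12), and 7 rose, 8 fell and 6 did not pass after tryptophan depletion (median 0.036). The NF-kB subunit gene RELA rose by 2.14 after histidine (SE 0.0515, limma adjusted p = 3.95e-21) and by 0.43 after tryptophan depletion (SE 0.0466, limma adjusted p = 2.19e-15). NFKB1, another NF-kB subunit gene, was named after its values were seen and is given without a test. It rose by 1.42 after histidine (SE 0.0493) and fell by 0.52 after tryptophan depletion (SE 0.0489). SMAD3, which carries TGF-beta signals to the nucleus and was also named after its values were seen, rose by 1.81 and 0.67. SMAD2 had log2 fold changes of 0.12 and 0.036, and SMAD4 rose by 0.36 and 0.18. JUN rose by 1.64 after histidine and fell by 0.61 after tryptophan depletion. TP73 fell by 2.21 and 3.01, and BRCA1, a regulator of GADD45A, fell by 2.17 and 2.24. ATF4, the factor of the amino acid response, fell by 0.28 after histidine depletion (limma adjusted p = 5.91e-05) and had a log2 fold change of 0.011 after tryptophan depletion (limma adjusted p = 0.855). CEBPB rose by 1.19 after tryptophan depletion (SE 0.0487) and had a log2 fold change of -0.049 after histidine depletion (limma adjusted p = 0.454).

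Target genes of some of the pathways that induce GADD45 genes are given next. Of 14 NF-kB feedback and response genes, 10 rose, 1 fell and 3 did not pass after histidine depletion, with a median of 2.23. BIRC3, an inhibitor of apoptosis, went from 343.6 ± 43.8 to 9657 ± 261 normalized counts (SD, n = 2; log2 fold change 4.81, SE 0.0683, limma adjusted p = 2.42e-25). The ubiquitin editor gene TNFAIP3 rose by 4.50 (SE 0.0784), the adaptor gene TRAF1 by 4.36 (SE 0.0907) and the inhibitor gene NFKBIA by 1.32 (SE 0.0551). After tryptophan depletion 7 rose, 3 fell and 4 did not pass (median 0.18). ICAM1 rose by 1.25, TNFAIP2 by 1.13 and NFKBIA by 0.27, while the chemokine gene CXCL8 fell by 2.88 and TNFAIP3 by 0.90 (SE 0.155, limma adjusted p = 1.07e-07). In the direct comparison 11 of the 14 were higher in histidine-depleted cells and 1 lower (median 1.84).

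The 12 TGF-beta response genes gave 6 higher, 5 lower and 1 not past the threshold after histidine depletion (median 0.20), and 7, 3 and 2 after tryptophan depletion (median 0.56). The ligand gene TGFB2 rose by 4.02 (SE 0.0790) and JUNB by 1.47 after histidine depletion, where ID1 fell by 1.45. JUNB rose by 0.78 and PMEPA1 by 0.77 after tryptophan depletion.

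The ATF4 and CHOP targets, genes of the response to amino acid shortage, gave 4 higher, 4 lower and 3 not past the threshold of 11 tested after histidine depletion (median -0.075). After tryptophan depletion 10 rose and 1 fell (median 1.06), and in the direct comparison 9 were lower and 2 higher in histidine-depleted cells (median -1.31). CHAC1 rose by 1.56 (SE 0.0473) and VLDLR by 1.84 (SE 0.0727) after tryptophan depletion. After histidine depletion ATF3 rose by 1.49 (SE 0.0515) and NUPR1 fell by 1.75 (SE 0.0867). Other genes named for growth arrest and DNA damage were measured beside the 3 paralogs. PPP1R15A (GADD34), which directs the phosphatase of eIF2alpha, went from 7826 ± 109 to 110127 ± 2627 normalized counts after histidine depletion (log2 fold change 3.81, SE 0.0539, limma adjusted p = 2.42e-25) and rose by 0.92 (SE 0.0468) after tryptophan depletion. DDIT3 (GADD153, the factor CHOP) rose by 0.69 (SE 0.0632) and 1.99 (SE 0.0514), and 31.6% of its exonic bases lie in genes of the opposite strand. DDIT4, an inhibitor of mTORC1, fell by 0.51 (SE 0.0594) after histidine and rose by 1.75 (SE 0.0476) after tryptophan depletion. DDIT4L was under the mean of 10 normalized counts and was not tested.

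GADD45GIP1 was set beside 48 tested genes of the large mitochondrial ribosomal subunit named MRPL. After histidine depletion 22 of these rose, 19 fell and 7 did not pass, with log2 fold changes from -1.86 to 1.55 and a median of 0.13. The 0.68 of GADD45GIP1 lay above 42 of them and below 6. After tryptophan depletion 6 rose, 37 fell and 5 did not pass, from -1.25 to 0.64 with a median of -0.43. The -1.16 of GADD45GIP1 lay below 45 of them and above 3, namely MRPL16 (-1.25), MRPL11 (-1.21) and MRPL9 (-1.21). Between the depletions the MRPL genes ran from -1.06 to 1.73 with a median of 0.37, 31 higher, 11 lower and 6 not past the threshold, and GADD45GIP1 at 1.82 lay above all 48. MRPL16 fell by 1.86 after histidine depletion. MRPL1 fell by 1.83 and 0.78 after histidine and tryptophan depletion, and MRPL13 fell by 1.73 and 0.98. MRPL9 rose by 0.27 after histidine depletion.

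**Figure D3:**
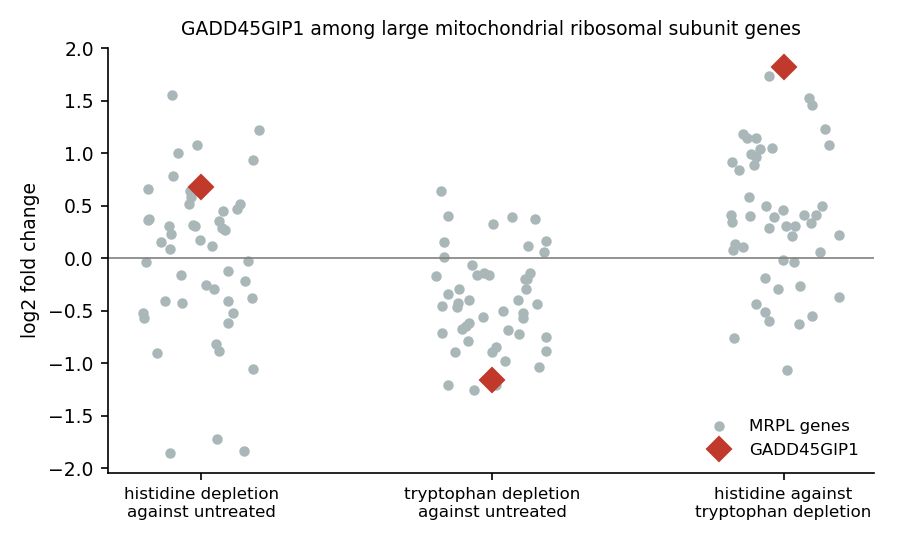
Log2 fold change of GADD45GIP1 (diamond) and of 48 MRPL genes (points) in the 3 comparisons, with points spread sideways for display only. GADD45GIP1 lies in the upper part of the MRPL genes after histidine depletion, below 45 of 48 after tryptophan depletion and above all 48 between the depletions.

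Of 6 GADD45GIP1 partners outside the ribosome, 2 rose, 2 fell and 2 did not pass after histidine depletion, and 2 rose, 3 fell and 1 did not pass after tryptophan depletion. OXA1L, which inserts newly made proteins into the inner mitochondrial membrane, had a log2 fold change of -0.084 after histidine depletion (limma adjusted p = 0.137) and fell by 0.37 after tryptophan depletion (SE 0.0472, limma adjusted p = 5.68e-12). STAT3 rose 2.65-fold and the nuclear receptor gene NR4A1 by 0.60 on the log2 scale after histidine depletion, while NFE2L2, the antioxidant factor NRF2, fell by 0.45. After tryptophan depletion the cyclin-dependent kinase genes CDK2 and CDK4 fell by 1.49 and 0.77. In CDK4, 44.2% of the exonic bases also belong to a gene of the opposite strand.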

How the data were processed

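RNA-seq of HT29 cells was analysed in 6 libraries, 2 per condition. The authors aligned reads with STAR 2.7.10a to GRCh38. They then ran htseq-count 2.0.5 over exons and deposited a signal per gene, normalized counts from DESeq2, in a table for each depletion that holds the same untreated libraries. How molecular identifiers, strand and reads with several placements were treated is not given in the sources used here. Both tables were normalized separately, so comparisons with untreated stayed within a table. Whole reads were recovered for 100% of the values (within 0.001 of a read), and given shared median-of-ratios size factors for values across all 6 libraries. Of 60676 identifiers, 60357 matched gencode 44.

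Tests used limma 3.58.1 in R 4.3.3 (trend, two-sided) on log2(normalized count + 1), leaving out genes whose mean was under 10, with Benjamini-Hochberg adjustment over all genes tested. Alternatives tried were other pseudocounts (0.5 and 8), other filters (none, and a mean of 50 or more), no trend, edgeR 4.0.16 and DESeq2 1.42.0 on recovered reads, upper-quartile scaling, a replicate block, all 6 libraries in the fit, a fold limit and each library left out. The code was tested on simulated data. The authors counted with gencode 38, whereas names, exon lengths and overlaps here are those of gencode 44, so lengths may differ from the exons counted. Levels per length used the union of exons, and canonical transcript length was an alternative added after the data were seen. Tables were made in Python 3.11.15 with numpy 2.4.6 and pandas 2.3.3, and plots with matplotlib 3.10.9.

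The members, lists and tests were chosen with earlier results of these data known. Named were the members, up to 3 genes per list and depletion with the largest change past the threshold and a mean of at least 100 in the higher group, genes fixed by name (MAP3K4, CDKN1A, ATF4, DDIT3, PPP1R15A, NFKBIA, TNFAIP3 and OXA1L) and the 5 genes most like each member. MAPK8, MAPK10, MAPK14, MAP2K7, TDG, SMAD2, SMAD3, SMAD4, JUN, NFKB1, CEACAM5, KRT20, CDX2 and the values of genes named in the other depletion were added after values were seen. Some items that this rule or the lists take in, and 1 list, are not reported here. That the 2 libraries of a condition come from separate cultures is not given, so the spread between libraries may be technical. Each comparison with untreated left 2 residual degrees of freedom, and limma drew the spread of each gene towards a trend over all genes. The p-values therefore do not measure the spread of a gene between its own libraries alone. Without the trend the limma adjusted p after tryptophan depletion was 0.0202 for GADD45A and 0.00615 for GADD45B.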

Additional observations from a re-analysis of the deposited data

Results flagged for a closer look

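Some genes moved one way in both libraries after one depletion and the other way in both after the other. GADD45GIP1 was among them, with a log2 difference of 1.82 between histidine-depleted and tryptophan-depleted cells, and this difference was not tested because the set was selected with the histidine values known.

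The following named genes of the lists were picked for their opposite directions, so their differences are given as a description, without a test. Those higher after histidine and lower after tryptophan depletion were TNFAIP3 (log2 difference between the depletions 5.38), CCNB1 (2.09), MAP2K3 (1.71), CCND1 (1.54), MRPL9 (1.46) and TET2 (0.53). NFKB1 and JUN, genes named after their values were seen, also went this way (1.93 and 2.23). Those lower after histidine and higher after tryptophan depletion were NUPR1 (-2.99), DDIT4 (-2.28), ID1 (-2.12), VLDLR (-1.93), MAPK13 (-1.06) and NFE2L2 (-0.60). CEACAM5, an epithelial marker named after its values were seen, also went this way and by more (-6.54). In VLDLR the value after histidine depletion did not itself pass the threshold (log2 fold change -0.075, limma adjusted p = 0.484).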

How the results depend on the processing

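After tryptophan depletion the 4 genes kept their direction under every alternative to the test. They kept their side of the threshold under those with all libraries of both groups, apart from the limit on the fold change, under which 3 passed. Their values after histidine depletion chose the set, and only the range is given. The log2 fold change of GADD45B ranged over the alternatives from 4.80 to 5.15 after histidine and from 1.08 to 1.35 after tryptophan depletion (limma, edgeR or DESeq2 adjusted p at most 0.00615). It ranged from 2.31 to 2.62 and from 0.33 to 0.53 (at most 0.0202) for GADD45A, from 1.16 to 1.55 and from 1.19 to 1.54 (at most 0.00559) for GADD45G, and from 0.62 to 0.90 and from -1.21 to -1.04 (at most 0.00197) for GADD45GIP1. Where the log2 fold change also had to reach 1 in size, 55 pathway genes were past the threshold after histidine depletion, 36 after tryptophan depletion and 65 between the depletions, in place of 135, 133 and 143, beside 32.5%, 20.5% and 31.7% of all genes tested, because the limit removes small changes by construction. With each library left out in turn, its group kept 1 library and the spread came from the other groups alone. Counts past the threshold are therefore not given for these fits. The sample numbers of the titles did not pair the libraries (correlations of deviations across genes 0.042, 0.0020 and -0.041). With a replicate block 140, 135 and 144 pathway genes passed, and all 4 members passed after tryptophan depletion. With 39 to 55 reads in untreated libraries, GADD45G is the member whose fold change depth limits most.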
